A study of Mus musculus with 48 samples.

Results

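The genes described here are 10 heat shock proteins and co-chaperones, Hspa1a, Hspa1b, Hspb1, Hsph1, Dnajb1, Hspa8, Hsp90aa1, Bag3, Hspa4l and Hspe1, followed in mouse brain after ischemic injury. They were chosen with earlier results of these data known, and were picked out by matching gene symbols to the identifiers of the count tables. All 10 were found among the 46983 genes of the tables, and all 10 were among the 19970 genes tested. The libraries came from male C57Black/6 mice that were 3 months old, in 11 groups without any transgene. The MCAO groups had a permanent middle cerebral artery occlusion, in which the artery is coagulated and cut under isoflurane, and the sham groups had the same surgery without coagulation. Both were sampled at 3 h, 12 h, 24 h, day 3 and day 7, with 4 sham libraries per time and 5 MCAO libraries per time except at 24 h, which had 4. The control group held 4 libraries of intact cortex. The labels call the tissue brain and place it in the injured cortical region, with both damaged and spared tissue, while the study also describes the bulk pieces as close to a whole hemisphere of the injured side. The share of lesion per library is not given in the sources used here, and the summed level of 7 markers of striatal projection neurons ran from 178 to 4231 CPM (counts scaled to a common library total) over the 48 libraries.

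Heat shock proteins are molecular chaperones, which bind unfolded or aggregating proteins and help them to fold, to be refolded or to be handed over for degradation. Part of them is made constantly, and part is induced when heat, oxidation or loss of energy supply unfolds proteins. Heat shock factor 1 (HSF1) then leaves its complex with chaperones, forms trimers and binds heat shock elements, which are repeats of GAA in alternating orientation (nGAAn units) in the promoters of its targets. In the brain, inducible HSP70 is a widely used marker of cells stressed by ischemia. The 10 genes cover the main classes. Hspa1a and Hspa1b encode the inducible HSP70 and Hspa8 the constitutive one, Dnajb1 is a J-domain co-chaperone that delivers clients to HSP70, and Hsph1 and Hspa4l are members of the HSP110 family that help HSP70 to exchange its nucleotide. Hsp90aa1 encodes the inducible form of HSP90, Hspb1 is the small heat shock protein HSP27, Bag3 links HSP70 to small heat shock proteins and to selective autophagy, and Hspe1 is the mitochondrial co-chaperonin HSP10.

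The libraries were 3′ end libraries of polyadenylated RNA, with 1522668 to 2826735 counts on genes (median 1935856). Levels are given as CPM after TMM scaling and were compared between libraries. They were not compared between genes, except for Hspa1a and Hspa1b, where this is a description only. The study counts mice as the replicates of its bulk data, and the labels tie no library to a named animal, so that the p-values measure the spread between these libraries. A gene passed the test when it differed by over 0.58 on the log2 scale, in either direction, and edgeR's quasi-likelihood F-test gave it a p below 0.01 after Benjamini-Hochberg adjustment. All 12 neuronal markers listed were detected in every group, with summed levels of 26406 to 61218 CPM. The summed levels of 8 granulocyte markers reached 0.0 to 15.2 CPM in the control and sham libraries and up to 1716 CPM after MCAO, and those of 5 erythroid genes reached 9.80 to 150.4 CPM and up to 1416 CPM. In bulk tissue, fewer cells of a type and less RNA per cell cannot be told apart. One MCAO library, replicate C at 12 h, stood apart from its group, with the highest level of all 10 heat shock genes, and the log2 fold change of each member at 12 h is therefore also given without it.

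Across the first day most of the heat shock genes had higher mean levels after MCAO than in sham, and 3 of the 10 passed the test at 1 time or more. Hspa1a rose at 3 h and 12 h, Hspa1b and Hsp90aa1 rose at 12 h, and none of the 10 passed at 24 h, day 3 or day 7. All 3 calls of 12 h were lost without replicate C, with only the groups compared in the fit, and with limma on the deposited log2 matrix. At 3 h 1 of 10 members was called, against 0.11% of all genes tested, and at 12 h 3 of 10 against 0.411%. Since the 10 genes were chosen with earlier results of these data known, these shares and those given below are descriptions only. All 10 members had a positive log2 fold change at 3 h and at 12 h, and 9 had one at 24 h. With scaling to the spike-ins 8 were positive at 3 h and 8 at 12 h, since Hspa8 and Hspa4l turned negative, and the same 2 genes turned negative at 3 h without MCAO replicate C. The median log2 fold change of the members was 0.66 at 3 h, 0.98 at 12 h and 0.91 at 24 h, with a median of all genes between 0.0 and 0.02 at these times. Without replicate C the values of 12 h were a median of 0.55, 8 positive members and 0 called, against 0.211% of all genes. An unadjusted p under 0.05 was then found for 5 of 10 members and for 2743 of all 19903 genes. At 24 h no member passed in edgeR, against 0.0901% of all genes, although 6 of 10 had an unadjusted p under 0.05 and DESeq2 called 1, Hspb1.

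On day 3 and day 7 the log2 fold changes of the members lay on both sides of 0. The members' median log2 fold change was -0.12 on day 3 and -0.05 on day 7, with 4 and 5 positive values. None of the 10 passed in edgeR on day 3, where 4.02% of all genes did, and none on day 7, where 3.5% did. The unadjusted p was under 0.05 for 2 members on day 3, which were Bag3 and Hspa4l, and for 3 on day 7, which were Bag3, Hspa4l and Hsp90aa1. DESeq2 called 0 members on either day.

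**Figure D1:**
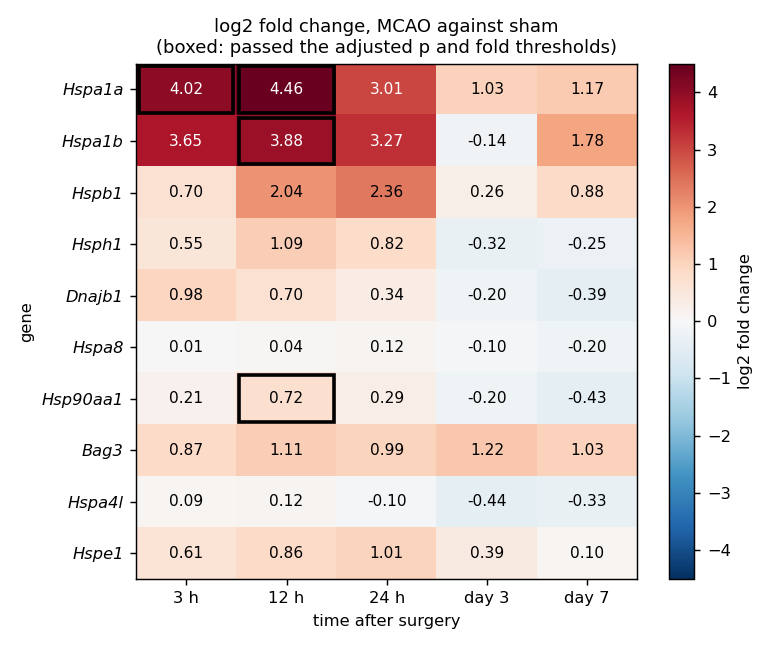
Log2 fold change of each heat shock gene (rows) in MCAO against sham libraries of the same time (columns, time after surgery), with boxes around the values that passed the test. The 4 boxed values are Hspa1a at 3 h and Hspa1a, Hspa1b and Hsp90aa1 at 12 h, and the values of Hspa8 stay between -0.20 and 0.12. Without replicate C none of the 3 values boxed at 12 h passed.

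The share of genes whose MCAO and sham libraries did not overlap at all gave a view of the same data that does not rest on a fitted spread. At 3 h every MCAO library lay above every sham library for 4 of 10 members, Hspa1a, Hspa1b, Dnajb1 and Hspe1, against 2.27% of all genes. At 12 h this held for Hspa1a and Hsp90aa1, 2 of 10 against 2.03%, and at 24 h for Hspa1b, Hspb1 and Hspe1, 3 of 10 against 3.73%. On day 3 it held for 0 of 10 against 4.33%, and on day 7 for Hspa1b alone, 1 of 10 against 5.38%. The opposite order, with every MCAO library below every sham library, was seen in 0 of 10 members at 3 h, 12 h and 24 h, where 1.31%, 1.27% and 2.1% of all genes had it. On day 3 Hspa4l had it, 1 of 10 against 2.81%, and on day 7 Hspa4l and Hsp90aa1 had it, 2 of 10 against 5.1%.

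Hspa1a and Hspa1b are neighbours on the minus strand of chromosome 17 in the build GRCm38, Hspa1a at chr17:34969190-34972156 and Hspa1b at chr17:34956436-34959238. They encode almost the same protein, and Hspa1a overlaps the protein-coding gene Gm20481 on the opposite strand. The strand setting of the counting is not given in the sources used here. If strand was ignored, reads that fell on both Hspa1a and Gm20481 were ambiguous under the union mode of the counting and were left out. The longest annotated transcripts of the pair shared 1454 of 2883 windows of 85 bases, the length of a read, whereas the last 500 bases of Hspa1a shared 0 of 416 such windows with Hspa1b, and the reverse comparison also gave 0 of 416. Reads from these transcript ends, where the libraries start, can thus be told apart, and reads that matched both genes were left out of the counts by the authors. The promoters of the pair, 250 bases before to 50 bases after the annotated start in RefSeq (GRCm38.p6), were identical in 98.7% of 300 aligned positions. They are printed 5′ to 3′ because both genes moved together, with capitals for each inverted pair of GAA units spelled GAANNTTC or TTCNNGAA, which reads the same on both strands.
Hspa1a promoter, chr17:34972107-34972406, minus strand: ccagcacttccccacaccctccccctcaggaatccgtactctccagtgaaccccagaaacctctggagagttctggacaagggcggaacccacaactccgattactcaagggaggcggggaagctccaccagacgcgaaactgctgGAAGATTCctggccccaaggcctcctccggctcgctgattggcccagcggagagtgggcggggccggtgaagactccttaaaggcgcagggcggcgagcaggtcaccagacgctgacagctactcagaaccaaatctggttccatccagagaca
Hspa1b promoter, chr17:34959189-34959488, minus strand: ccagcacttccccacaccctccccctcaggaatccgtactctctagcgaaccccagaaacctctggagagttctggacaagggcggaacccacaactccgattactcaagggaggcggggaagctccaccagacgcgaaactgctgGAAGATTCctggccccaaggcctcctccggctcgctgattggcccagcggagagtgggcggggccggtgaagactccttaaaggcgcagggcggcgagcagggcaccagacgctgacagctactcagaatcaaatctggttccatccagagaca
Each holds 1 inverted pair, which begins 104 bases before the start. Of the 32851 promoters of that length in RefSeq, 15.1% hold at least 1 such pair.

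At 3 h Hspa1a was at 108, 276, 204, 417 and 89.8 CPM in the MCAO replicates A to E and at 14.2, 19.6, 13.5 and 6.54 CPM in the sham replicates A to D. The lowest MCAO library lay more than 4 times above the highest sham library, so that the groups were far apart. Hspa1a had a log2 fold change of 4.02 ± 0.77 (SE, n = 5 and 4), a 16.2-fold difference, with an adjusted p of 0.00647 in edgeR. The call was lost without MCAO replicate B or D or any 1 sham replicate, with log2 fold changes of 3.65 to 4.23 and adjusted p up to 0.0387. Hspa1b was at 70.5, 194, 172, 254 and 77.0 CPM after MCAO and at 14.6, 17.3, 13.9 and 2.73 CPM in sham. Its groups did not overlap either, and its log2 fold change of 3.65 ± 0.78 had an adjusted p of 0.0143, just outside the threshold. Among all 19970 genes at 3 h, Hspa1a ranked 10 by p and Hspa1b 34.

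At 12 h the pair was high in some MCAO libraries and near the sham level in others. Hspa1a was at 9.64, 32.5, 723, 64.1 and 52.4 CPM in the MCAO replicates A to E and at 6.14, 7.30, 9.24 and 8.57 CPM in the sham replicates. The highest library exceeded the lowest by 75.0 times in the MCAO group, and replicate A lay just above the highest sham library. Its log2 fold change was 4.46 ± 0.80, with an adjusted p of 0.00111. Hspa1b was at 4.82, 48.1, 499, 16.5 and 31.6 CPM after MCAO and at 2.79, 8.34, 15.5 and 4.68 CPM in sham, with a log2 fold change of 3.88 ± 0.81 and an adjusted p of 0.00649. Replicate A was here within the sham range. Without replicate C the log2 fold changes were 2.29 (adjusted p = 0.054) for Hspa1a and 1.61 (adjusted p = 0.24) for Hspa1b, and neither passed. Hspa1a also missed the threshold without sham replicate C (adjusted p = 0.011), and Hspa1b without any 1 sham replicate (adjusted p up to 0.0337).

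At 24 h the spread among MCAO libraries of the pair was again wide. Hspa1a was at 7.65, 93.5, 197 and 28.7 CPM in the MCAO replicates A to D and at 10.7, 13.9, 6.71 and 9.44 CPM in sham. Replicates B, C and D lay above every sham library, D by the least, and A lay inside the sham range. Its log2 fold change was 3.01 ± 0.81 with an adjusted p of 0.109. Hspa1b was at 9.35, 94.9, 169 and 22.0 CPM after MCAO and at 8.91, 6.32, 7.93 and 7.34 CPM in sham. Its groups did not overlap, although MCAO replicate A was close to the sham range, and its log2 fold change of 3.27 ± 0.86 had an adjusted p of 0.0963.

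On day 3 the groups overlapped for both genes of the pair. Hspa1a was at 10.8 to 43.0 CPM after MCAO (median 17.6) and at 6.46 to 13.1 CPM in sham (median 10.7), a log2 difference of 1.03 with a 95% interval from -0.55 to 2.60. Hspa1b was at 8.13 to 29.0 CPM after MCAO (median 11.2) and at 10.6 to 22.0 CPM in sham (median 17.8), a log2 difference of -0.14 with an interval from -1.69 to 1.40. On day 7 Hspa1a was at 8.08 to 36.3 CPM against 6.84 to 10.9 CPM. Hspa1b was then at 28.3, 26.5, 18.4, 16.8 and 14.4 CPM after MCAO and at 12.6, 7.00, 4.91 and 0.456 CPM in sham, of which the last is 1 read. Every MCAO library of day 7 lay above every sham library, while the log2 fold change of 1.78 ± 0.89 had an adjusted p of 0.215.

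The ratio of Hspa1a to Hspa1b CPM had a median of 1.17 over the series and a value above 1 in 30 of 48 libraries, but it varied widely between libraries. It ran from 0.677 to 3.89 after MCAO at 12 h and from 0.286 to 1.97 after MCAO on day 7. The highest ratio was that of sham replicate D of day 7, with 6.84 CPM of Hspa1a and 0.456 CPM of Hspa1b, which is 1 read. After MCAO at 3 h the ratio was 1.17 to 1.64, and the rank of the libraries by one gene equalled that by the other in 3 of 5 libraries. In the sham libraries of day 3 it was 0.571 to 0.636 in all 4 libraries, the narrowest range of any group. Over the 48 libraries log2(CPM + 1) of the pair had a Pearson r of 0.914, given as a description since groups, depth and tissue composition are shared by both values. With the counts of the pair summed, the log2 fold change of MCAO against sham was 3.86 at 3 h (adjusted p = 0.00837), 4.21 at 12 h (adjusted p = 0.0015) and 3.13 at 24 h (adjusted p = 0.0668). Without MCAO replicate C the summed pair had a log2 fold change of 2.01 at 12 h (adjusted p = 0.0791) and did not pass.

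**Figure D2:**
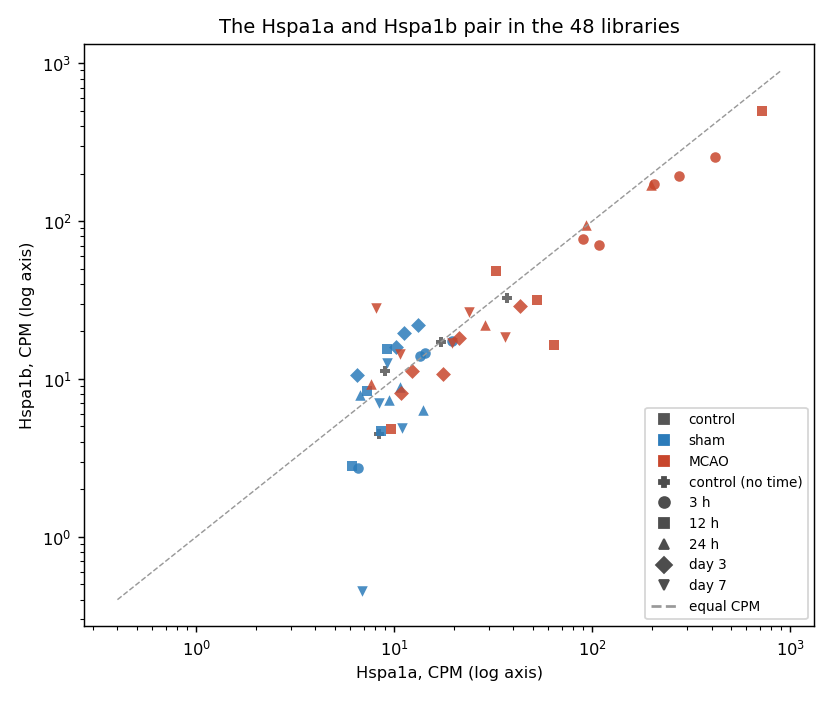
CPM of Hspa1b (vertical, log axis) against CPM of Hspa1a (horizontal, log axis) in the 48 libraries, with colors for control, sham and MCAO, symbols for the time and a dashed line at equal CPM. The MCAO libraries of 3 h lie together in the upper right, whereas those of 12 h run from 9.64 to 723 CPM of Hspa1a.

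Hspb1 (chr5:135887919-135889563, plus strand) encodes HSP27, a small heat shock protein that holds unfolding proteins in a soluble state and that reactive astrocytes are known to make. Its RefSeq promoter is printed because it holds 2 inverted pairs, which begin 117 and 97 bases before the start and which 1.96% of all promoters match or exceed in number.
Hspb1 promoter, chr5:135887669-135887968, plus strand: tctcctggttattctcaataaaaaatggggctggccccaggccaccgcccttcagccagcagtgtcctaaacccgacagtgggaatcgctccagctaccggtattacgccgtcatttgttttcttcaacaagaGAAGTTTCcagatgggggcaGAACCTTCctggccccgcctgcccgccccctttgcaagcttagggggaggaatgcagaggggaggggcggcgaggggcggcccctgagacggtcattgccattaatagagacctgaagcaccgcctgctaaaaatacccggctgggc
Its levels were low, from 4 to 146 reads per library. At 24 h it was at 19.97, 27.6, 30.1 and 28.1 CPM after MCAO and at 7.13, 2.53, 3.66 and 6.82 CPM in sham. The 4 MCAO libraries were close to each other and all above the sham range. Its log2 fold change of 2.36 ± 0.54 had an adjusted p of 0.0414, outside the threshold. At 12 h Hspb1 was at 8.53, 15.1, 76.2, 8.24 and 13.1 CPM after MCAO against 4.47, 6.26, 8.87 and 3.51 CPM in sham, with a log2 fold change of 2.04 ± 0.50 (adjusted p = 0.026). Replicates A and D lay inside the sham range, and without replicate C the log2 fold change was 0.93 (adjusted p = 0.327).

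The earlier and later times gave smaller values for Hspb1. At 3 h it was at 6.63 to 26.7 CPM after MCAO and at 4.03 to 14.8 CPM in sham (log2 difference 0.70, interval -0.25 to 1.66). On day 3 the ranges were 3.74 to 16.5 and 6.93 to 17.8 CPM, and on day 7 they were 6.62 to 19.6 and 4.01 to 7.93 CPM. All of these groups overlapped. The control libraries were at 5.02 to 16.4 CPM, so that the sham libraries of 24 h, with a mean of 5.03 ± 2.29 (SD, n = 4), had a lower mean than the control (10.5 ± 5.21, n = 4), a log2 difference of -1.03 with an adjusted p of 1.

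Bag3 (chr7:128523616-128546981, plus strand) had a positive log2 fold change at all 5 times. It encodes a co-chaperone that holds HSP70 and small heat shock proteins together during selective autophagy, and it overlaps 2610306O10Rik, an unconfirmed transcript on the same strand. Its promoter holds 1 inverted pair, which begins 42 bases after the start. The log2 fold change was 0.87 ± 0.45 at 3 h, 1.11 ± 0.45 at 12 h, 0.99 ± 0.48 at 24 h, 1.22 ± 0.44 on day 3 and 1.03 ± 0.45 on day 7. None of these passed, with adjusted p between 0.0742 on day 3 and 0.609 at 3 h. The value of 12 h rested in part on replicate C, which was at 31.8 CPM against 4.82 to 12.5 CPM in the others, and was 0.48 without it (adjusted p = 0.66). The counts behind them were small, with 4 to 61 reads per library.

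Single MCAO libraries of Bag3 differed widely from each other on the later days. On day 3 they were at 2.67, 14.9, 22.0, 9.77 and 23.8 CPM, and the sham libraries were at 7.25, 5.54, 6.07 and 6.09 CPM. Replicate A was below every sham library and the other 4 above. On day 7 they were at 10.96, 7.13, 25.6, 8.16 and 16.9 CPM against 9.15, 5.60, 5.45 and 6.39 CPM. The summed level of 8 markers of other peripheral myeloid cells in the MCAO groups was 25.1 to 917 CPM on day 3 and 99.8 to 4087 CPM on day 7, against 7.01 to 16.9 CPM and 8.18 to 11.9 CPM in sham, with 4 of 8 and 3 of 8 of these markers called higher. Of the microglial markers 7 of 9 and 4 of 9 were called higher on these days, and of the fibroblast markers 4 of 7 and 6 of 7. Of the erythroid markers 3 of 5 and 4 of 5 were, and of each other list at most 2. On day 3 replicates C and E, the highest for Bag3, also had the highest sums of microglial markers (2576 and 2292 CPM, 674 to 1672.5 CPM in the others) and of fibroblast markers (919 and 1692 CPM, 154 to 455.5 CPM in the others). On day 7 replicate C, again the highest for Bag3, had 3502 CPM of microglial markers (883 to 1224 CPM in the others) and 6021 CPM of fibroblast markers (188 to 545 CPM in the others). The part of these cell types in the Bag3 values was not tested. At 3 h Bag3 was at 6.83 to 14.2 CPM after MCAO and at 3.27 to 8.06 CPM in sham. The markers of other peripheral myeloid cells then summed to 5.92 to 18.5 CPM after MCAO and 4.61 to 11.5 CPM in sham. Microglial markers summed to 315 to 412.5 CPM and 326 to 455 CPM, and fibroblast markers to 80.6 to 106.6 CPM and 64.9 to 211 CPM.

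Hsph1 (chr5:149614287-149636376, minus strand) encodes HSP105, an HSP110 that exchanges the nucleotide of HSP70 and takes part in pulling proteins out of aggregates. RefSeq gives it 2 starts close to each other, and the promoter of the first is shown because it holds 3 inverted pairs, as 0.256% of all promoters do or exceed, and 1 run of 3 alternating units, as 0.603% do. The last 2 pairs overlap and form that run.
Hsph1 promoter, chr5:149636266-149636565, minus strand: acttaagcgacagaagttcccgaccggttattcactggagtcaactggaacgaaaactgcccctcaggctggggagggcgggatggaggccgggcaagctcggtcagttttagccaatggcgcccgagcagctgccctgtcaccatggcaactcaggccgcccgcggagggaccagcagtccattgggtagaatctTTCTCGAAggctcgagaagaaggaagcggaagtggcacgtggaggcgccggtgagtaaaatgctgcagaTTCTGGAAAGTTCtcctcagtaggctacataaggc
At 12 h Hsph1 was at 515, 446, 1619.6, 787 and 450.2 CPM after MCAO and at 365, 300.3, 450.7 and 313 CPM in sham. Replicates B and E lay just under the highest sham library. The log2 fold change of 1.09 ± 0.26 had an adjusted p of 0.0225, and without replicate C it was 0.62 (adjusted p = 0.19). At 24 h the gene was at 321, 578, 809 and 250.5 CPM after MCAO against 286, 266, 278 and 281 CPM in sham, a log2 fold change of 0.82 ± 0.28 (adjusted p = 0.267), with replicate D below the sham range and the other 3 above it.

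Hsph1 at 3 h was at 352 to 660 CPM after MCAO and at 283 to 378 CPM in sham (log2 difference 0.55, interval 0.03 to 1.08, adjusted p = 0.562). The log2 differences of the later days were negative. On day 3 it was at 163 to 305 CPM after MCAO against 268 to 323 CPM, and on day 7 at 207 to 282 CPM against 262 to 336 CPM. The log2 differences were -0.32 (interval -0.84 to 0.20) and -0.25 (interval -0.78 to 0.27). Against the control, Hsph1 passed at 12 h, as given further on.

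Hspa4l (chr3:40744495-40796103, plus strand), an HSP110 relative that is made constantly in brain and testis, differed from Hsph1 in that its values were near those of sham over the first day. Its log2 differences were 0.09 (interval -0.22 to 0.40) at 3 h, 0.12 (interval -0.19 to 0.43) at 12 h and -0.10 (interval -0.42 to 0.23) at 24 h, and without replicate C that of 12 h was -0.03. On day 3 Hspa4l was at 166, 199, 155, 171 and 145 CPM after MCAO and at 250.2, 219, 209 and 228 CPM in sham. On day 7 it was at 155, 162, 154, 174 and 197 CPM after MCAO and at 213, 206, 225 and 203 CPM in sham. Every MCAO library was below every sham library on both days, and also below every control library (202 to 272 CPM). For the control, the share of all genes with this order was not counted. The log2 fold changes of -0.44 ± 0.15 on day 3 (adjusted p = 0.0664) and -0.33 ± 0.16 on day 7 (adjusted p = 0.182) did not pass. The summed level of 12 neuronal markers in the MCAO libraries was 28649 to 35757 CPM on day 3 and 26406 to 31034 CPM on day 7, against 35734 to 42850 and 40660.5 to 61218 CPM in sham, with 1 and 2 of 12 called lower. At 24 h, when Hspa4l was at 166 to 260.5 CPM after MCAO and 194 to 255.5 CPM in sham, the neuronal sums also differed. They were 29429 to 37848 CPM after MCAO (median 30398) and 33851 to 46800 CPM in sham (median 43324), with 0 of 12 markers called. The part of the neurons in the values of Hspa4l was not tested. No inverted pair was found in its promoter window.

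Dnajb1 (chr8:83608193-83612653, plus strand) encodes HSP40, which brings clients to HSP70 and stimulates its ATPase, and also takes part in switching HSF1 off again. Its difference was largest at the first time point. At 3 h it was at 99.5, 112, 166, 144 and 96.6 CPM after MCAO and at 58.9, 73.7, 67.2 and 51.2 CPM in sham. The groups did not overlap, and the log2 fold change of 0.98 ± 0.28, a 1.97-fold difference, had an adjusted p of 0.145. At 12 h it was at 73.4, 61.2, 236, 81.2 and 78.0 CPM against 74.3, 51.1, 78.4 and 56.5 CPM, so that 4 of 5 MCAO libraries lay in or just above the sham range. The log2 fold change of 0.70 ± 0.28 (adjusted p = 0.219) was 0.17 without replicate C. From 24 h on the groups overlapped, with log2 differences of 0.34 (interval -0.27 to 0.94), -0.20 (interval -0.77 to 0.37) and -0.39 (interval -0.96 to 0.18) at 24 h, day 3 and day 7. Neither of its 2 promoter windows in RefSeq held an inverted pair.

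Hsp90aa1 (chr12:110690605-110702728, minus strand) encodes the inducible HSP90, the chaperone of kinases and steroid receptors that also keeps HSF1 inactive. At 12 h it was at 1347, 845, 1532, 1249 and 1229 CPM after MCAO and at 829, 753, 824 and 600 CPM in sham. All 5 MCAO libraries were above all 4 sham libraries, replicate B by the least. The log2 fold change was 0.72 ± 0.16, a 1.65-fold difference, with an adjusted p of 0.00927. This difference depended less on replicate C than that of the HSP70 pair. Without it the log2 fold change was 0.64 (adjusted p = 0.044). The call was close to the threshold and was lost without any 1 of MCAO replicates A, C, D and E or of the 4 sham replicates, with log2 fold changes of 0.63 to 0.77 and adjusted p up to 0.0695, and it was kept without MCAO replicate B.

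At 3 h Hsp90aa1 was at 649, 666, 1173, 930 and 667 CPM after MCAO against 865, 660, 694 and 614 CPM in sham (log2 difference 0.21, interval -0.11 to 0.52). Only replicates C and D exceeded the sham range. At 24 h it was at 1043, 870, 930 and 570 CPM against 787, 613, 685 and 711 CPM (log2 difference 0.29, interval -0.04 to 0.62). On day 7 the order had turned, with 557, 691, 606, 588 and 638 CPM after MCAO against 759, 910, 726 and 933 CPM in sham. Every MCAO library was then below every sham library, with a log2 fold change of -0.43 ± 0.16 (adjusted p = 0.0707). The sham mean of day 7 (832 ± 105 CPM, SD, n = 4) was the highest of the sham and control groups, and the MCAO libraries of day 7 overlapped the control libraries (623 to 803 CPM).

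Hspa8 (chr9:40800984-40810087, plus strand) encodes HSC70, the constitutive HSP70 of folding, vesicle uncoating and chaperone-mediated autophagy, and it carries the small nucleolar RNAs Snord14c, Snord14d and Snord14e in its introns. Its level hardly differed between MCAO and sham. At 3 h it was at 245 to 290.3 CPM after MCAO and at 197 to 289 CPM in sham, and at 12 h at 205 to 287 CPM and 217 to 263 CPM. The log2 differences were 0.01 (interval -0.22 to 0.24) at 3 h, 0.04 (interval -0.20 to 0.27) at 12 h and 0.12 (interval -0.13 to 0.37) at 24 h, and the highest upper bound of these intervals was 1.29-fold. Without replicate C the value of 12 h was -0.04 (adjusted p = 0.918). On day 3 the difference was -0.10 (interval -0.34 to 0.13) and on day 7 it was -0.20 (interval -0.43 to 0.04). Replicate C at 12 h, with the highest levels of every member, had 287 CPM of Hspa8, 1.40 times the lowest library of its group.

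Hspe1 (chr1:55088132-55091307, plus strand) encodes the lid of the mitochondrial chaperonin, and its partner Hspd1 lies next to it on the opposite strand and overlaps it. The strand setting is not given. If strand was ignored, reads of the overlap were ambiguous under the union mode of the counting and were left out. The counts of Hspe1 may then have been lowered, and the bearing on its likeness to Hspd1 was not tested. The promoter of Hspe1 is shown because it has 3 overlapping inverted pairs, which begin 89, 84 and 79 bases before the start and form 2 runs of 3 alternating units. Of all 32851 promoters, 11 have 2 or more such runs.
Hspe1 promoter, chr1:55087898-55088197, plus strand: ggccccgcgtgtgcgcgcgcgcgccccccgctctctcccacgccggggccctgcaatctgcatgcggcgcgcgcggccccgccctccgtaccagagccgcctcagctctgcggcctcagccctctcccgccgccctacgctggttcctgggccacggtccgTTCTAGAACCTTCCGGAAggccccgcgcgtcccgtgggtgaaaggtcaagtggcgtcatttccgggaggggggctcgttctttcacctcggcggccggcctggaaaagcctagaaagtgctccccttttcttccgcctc
At 24 h Hspe1 was at 86.3, 116, 153 and 99.6 CPM after MCAO and at 68.9, 42.4, 46.3 and 67.1 CPM in sham. At 3 h it was at 66.9, 70.9, 96.5, 107 and 81.6 CPM after MCAO and at 56.5, 62.8, 61.0 and 41.4 CPM in sham. The groups were separate at both times, with log2 fold changes of 1.01 ± 0.27 at 24 h (adjusted p = 0.108) and 0.61 ± 0.26 at 3 h (adjusted p = 0.489). At 12 h it was at 70.8, 86.9, 271, 107 and 76.2 CPM against 74.9, 60.5, 78.4 and 54.6 CPM, and the log2 fold change of 0.86 ± 0.26 (adjusted p = 0.0724) was 0.34 without replicate C. On day 3 the difference was 0.39 (interval -0.13 to 0.91) and on day 7 it was 0.10 (interval -0.42 to 0.61).

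**Figure D3:**
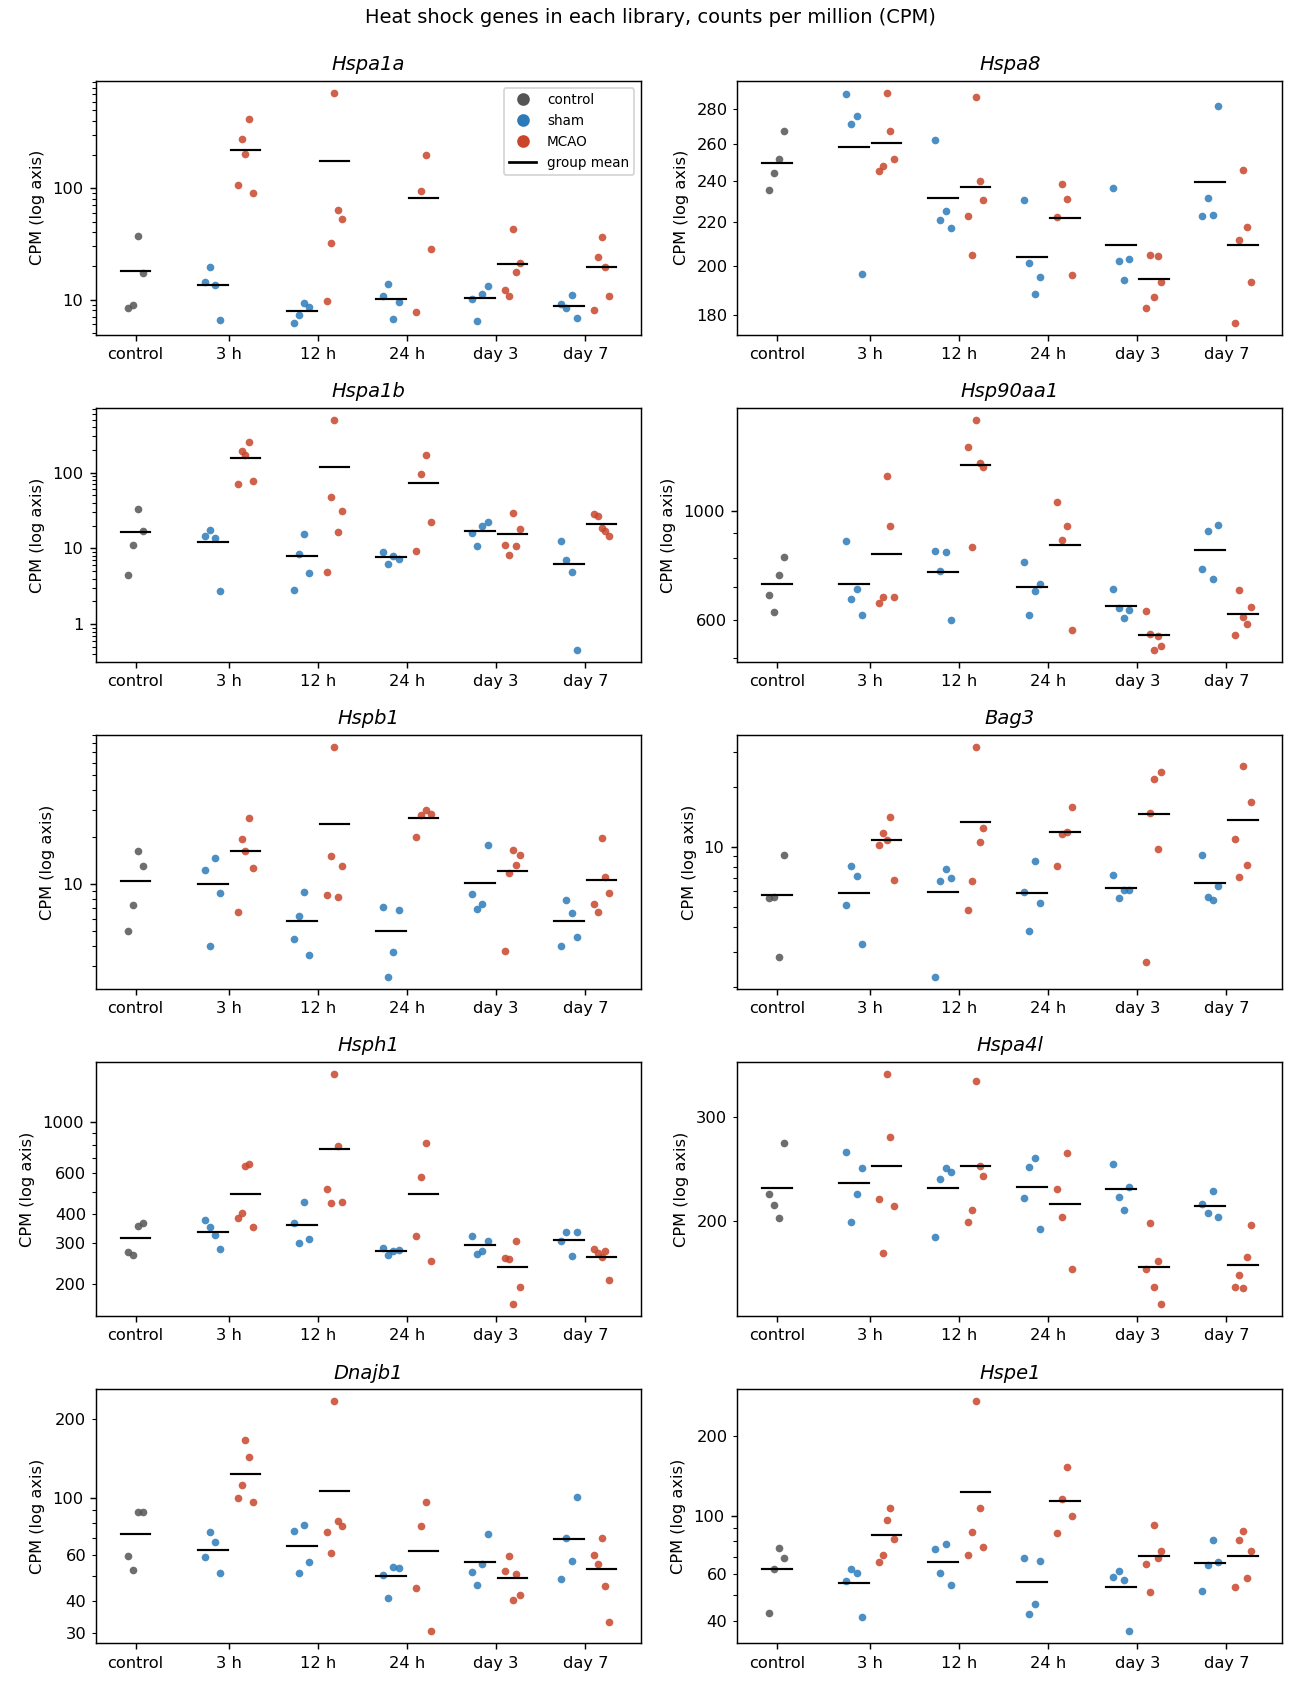
CPM of the 10 heat shock genes (log axes with a range of their own in each panel) in every library of the control, sham and MCAO groups by time after surgery, with black lines at the group means. Hspa1a and Hspa1b separate from sham at 3 h, replicate C at 12 h is the highest point of its group in every panel, and Hspa4l and Hsp90aa1 lie below sham on day 7.

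The promoter windows of 8 members were found in RefSeq, and 6 of these 8 held at least 1 inverted pair. Runs of 3 alternating units were found in 2 members, Hsph1 and Hspe1. These matches are descriptions of letters in a window of 300 bases. Heat shock elements further away, or with units that depart from the exact spelling, were not looked for. The number of matches can therefore not rank the promoters by their heat shock elements. The members with the largest differences after MCAO were not those with the most matches in this window, since Hspa1a and Hspa1b had 1 pair each and Hspe1 and Hsph1 had 3.

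Single MCAO libraries differed in how far the members lay above sham. At 12 h replicate C was above the highest sham library in 10 of 10 members, with a median log2 ratio of CPM + 1 to the sham mean of 2.09, while replicates A, B, D and E had median ratios of 0.125, 0.24, 0.70 and 0.52. At 3 h replicate C was above the sham range in 10 members and D in 9, with medians of 0.79 and 1.06, and replicates A, B and E had medians of 0.24, 0.59 and 0.255. At 24 h replicates B and C had medians of 0.96 and 1.185 with 9 and 10 members above the sham range, and A and D had medians of 0.235 and 0.38. On day 3 and day 7 the medians ran from -0.19 to 0.24.

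The markers of striatal projection neurons differed between the same libraries. At 3 h they summed to 421 and 461 CPM in replicates C and D, which had the highest medians, and to 2423, 2366 and 859 CPM in A, B and E. At 24 h they summed to 467 and 275 CPM in replicates B and C and to 1950 and 4231 CPM in A and D. At both times the libraries with the highest medians thus had the lowest striatal sums. Among the others of 3 h, replicate B had a higher median than E (0.59 against 0.255) and also a higher sum. At 12 h replicate C had the lowest striatal sum of its group (398.5 CPM, 472 to 1511 CPM in the others). The order did not hold for the others of 12 h. Replicate D, with the next highest median (0.70), had the highest sum (1511 CPM), and A, with the lowest median (0.125), had 537 CPM. None of the 7 striatal markers tested was called in MCAO against sham at any time. The part of the dissected region in the levels of the heat shock genes was not tested.

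Replicate C at 12 h had 1825050 counts on genes, the median of its group, and 5.09% of spike-in reads, also the median. Its erythroid markers summed to 1416 CPM, the highest of the group, next to 1304 CPM in replicate D and 69.7 to 799 CPM in the other 3. Its granulocyte markers summed to 175 CPM, while replicate E had 1716 CPM with Hspa1a at 52.4 CPM. Its neuronal markers summed to 29587 CPM, as low as in replicate E (29603.5 CPM), and its microglial markers to 275 CPM, the lowest of the group (428 to 648 CPM in the others). Its sums were the highest of the group for oligodendrocyte markers (2035 CPM, 946 to 1871 CPM in the others), for fibroblast markers (216 CPM, 103 to 211 CPM) and for markers of pericytes and smooth muscle (121 CPM, 54.1 to 100.6 CPM). The part of these differences in its heat shock levels was not tested.

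**Figure D4:**
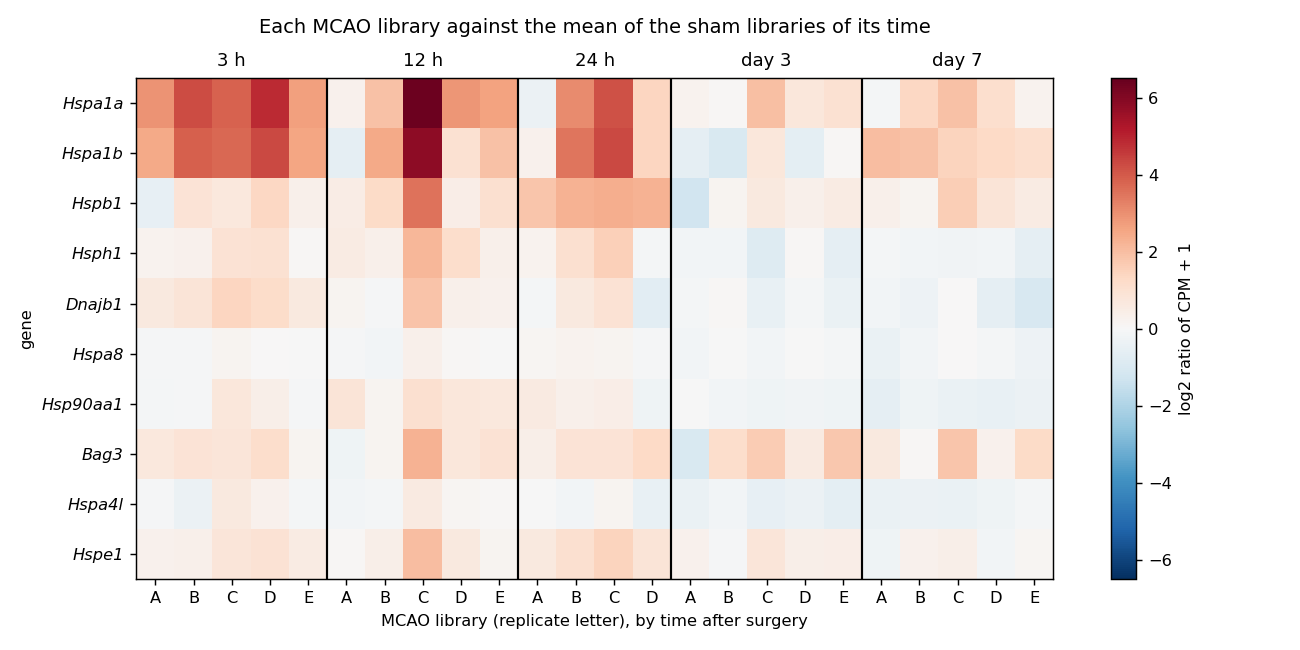
Log2 ratio of CPM + 1 in each MCAO library (columns, replicate letters grouped by time) to the mean of the sham libraries of the same time, for the 10 heat shock genes (rows, color scale in log2 units). Replicate C at 12 h has the darkest column, and at 24 h replicates B and C are raised for most genes while A and D are raised most for Hspb1.

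The MCAO libraries were also compared with the intact control, a comparison that shares the MCAO libraries with the one above and is no second test of it. At 12 h Hspa1a (log2 fold change 3.29 ± 0.74, adjusted p = 0.00771), Hsph1 (1.27 ± 0.27, adjusted p = 0.00382) and Hsp90aa1 (0.81 ± 0.16, adjusted p = 0.00203) were higher, 3 of 10 members against 0.856% of all genes. All 5 MCAO libraries lay above the 4 control libraries for Hsph1 and Hsp90aa1, and 3 of 5 did for Hspa1a, whose control replicate C was at 37.25 CPM. The share of all genes separated from the control in this way was not counted. Without MCAO replicate C none of the 3 passed in edgeR, with log2 fold changes of 1.12 (adjusted p = 0.323), 0.80 (adjusted p = 0.0482) and 0.72 (adjusted p = 0.01). None passed without control replicate A or B either, and 1 passed without control replicate C. At 3 h Hspa1a had a log2 fold change of 3.61 ± 0.75 and an adjusted p of 0.0106, just outside the threshold, and 0 of 10 members passed against 0.13% of all genes. In that comparison 4 members had an unadjusted p under 0.05 and DESeq2 called 2, Hspa1a and Hspa1b. Without MCAO replicate E, 1 member passed.

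At 24 h, day 3 and day 7 no member passed against the control in edgeR, where 0.28%, 3.1% and 1.5% of all genes did and where 6, 4 and 3 members had an unadjusted p under 0.05. DESeq2 called 0 members at each of these times. Among the 4 of day 3 was Hspa8, with 183 to 205 CPM after MCAO against 235.5 to 267 CPM in control, all 5 libraries below all 4, and a log2 fold change of -0.36 ± 0.12 (adjusted p = 0.0499) that was under the size asked for. The share of all genes with such a separation from the control was not counted here either. Hspa4l was at 145 to 199 CPM on day 3 against 202 to 272 CPM in control (log2 fold change -0.44 ± 0.15, adjusted p = 0.0729). Bag3 passed on day 3 without MCAO replicate A, the library in which it was lowest.

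The surgery without occlusion was compared with the intact control at each time. None of the 10 members passed in edgeR at 3 h, 12 h, 24 h, day 3 or day 7, where 0.0%, 0.0351%, 0.01%, 0.0% and 0.0% of all genes did. DESeq2 called 0 members at each time, and 2 unadjusted p were under 0.05, both of Hspa8, which was lower at 24 h (log2 difference -0.29, interval -0.54 to -0.04) and on day 3 (-0.26, interval -0.50 to -0.01). The intervals were wide for the low genes. For Hspa1a the sham difference on day 3 was -0.81 with an interval from -2.50 to 0.88, and for Hsp90aa1 on day 7 it was 0.23 with an interval from -0.10 to 0.56.

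The change of the MCAO effect from one time to the next was tested as an interaction. No member passed in any of the 4 steps in edgeR or DESeq2, from 3 h to 12 h, from 12 h to 24 h, from 24 h to day 3 and from day 3 to day 7, where 0.01%, 0.01%, 0.01% and 0.0% of all genes did. In the first step 1 member, Hsp90aa1, had an unadjusted p under 0.05 (difference of log2 fold changes 0.52 ± 0.22). In the step from 24 h to day 3, 4 members did. These were Hspa1b (-3.42 ± 1.15), Hspb1 (-2.10 ± 0.73), Hsph1 (-1.14 ± 0.38) and Hsp90aa1 (-0.48 ± 0.23), with adjusted p from 0.387 to 0.552. In the other 2 steps 0 members did, against 1015 of all genes from 12 h to 24 h and 3231 from day 3 to day 7. Without replicate C at 12 h, 3 members had an unadjusted p under 0.05 in the first step, Hspa1a (-1.74), Hspa1b (-2.04) and Dnajb1 (-0.81), and 2 from 12 h to 24 h, Hspb1 (1.43) and Hspe1 (0.67), with adjusted p of at least 0.609. With all libraries the values of the pair in the first step were 0.44 and 0.23, of the opposite sign.

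Over the 48 libraries the profiles of the members were alike to different degrees, in a description without a test since conditions, depth and composition are shared. Besides the HSP70 pair, Hsph1 was most like Dnajb1 (Pearson r of log2(CPM + 1) 0.818) and Hsp90aa1 (0.815), and Hspe1 was most like Hspa1a (0.728). Bag3 had r of 0.024 with Hspa8, 0.047 with Hsp90aa1 and -0.062 with Hspa4l, and its highest value with a member was 0.607 with Hspb1. Hspa1a and Hspa8, the inducible and the constitutive HSP70, had an r of 0.424. Hspa1a and Hspa1b had r of 0.697 and 0.718 with Hspb1, and of 0.383 and 0.267 with Hsp90aa1. With replicate C at 12 h left out, these were 0.62, 0.653, 0.245 and 0.116. Without replicate C at 12 h the values were 0.753 for Hsph1 with Dnajb1, 0.772 for Hsph1 with Hsp90aa1, 0.647 for Hspe1 with Hspa1a, 0.895 for the HSP70 pair and 0.355 for Hspa1a with Hspa8.

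For each member the 3 genes outside the set with the highest r were listed among genes with a mean of at least 2 CPM. For Hspa1a these were Rn7sk (0.818), a small nuclear RNA with a mean of 7.49 CPM, Snhg1 (0.78) and Cdkn1a (0.758), the cell cycle inhibitor p21. For Hspa1b they were Kmt5a (0.761), Snhg1 (0.76) and Pabpc4 (0.742), and for Hspb1 Slc5a3 (0.722), Atf3 (0.721) and Cebpd (0.711), of which the last 2 encode stress-induced transcription factors. Hspd1, the chaperonin partner of Hspe1, was the most like gene for Hsph1 (0.791) and the next to most like for Hspe1 (0.705), after Mettl16 (0.71), and without replicate C at 12 h these 2 values of Hspd1 were 0.687 and 0.554. For Bag3 the 3 genes were the chemokines Ccl4 (0.799), Ccl9 (0.792) and Ccl2 (0.784), which have mean levels of 3.15 to 5.51 CPM. Zbtb11 was among the 3 for Hsph1 (0.771), Dnajb1 (0.746) and Hspa8 (0.684). The genes for Hsp90aa1 were Prrc2c (0.815), Golga4 (0.805) and Fam193a (0.803), and those for Hspa4l were Zbtb38 (0.789), Hivep2 (0.787) and Pdp1 (0.767).

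The other chaperones were described with 9 lists of 88 genes, of which 86 were tested. At 3 h 0 of 86 passed and at 24 h 0 passed in edgeR, where 0.11% and 0.0901% of all genes did. At 12 h 1 rose (1.16% of the 86, against 0.411% of all genes), on day 3 4 rose (4.65% against 4.02%) and on day 7 1 fell (1.16% against 3.5%), so that the share on day 3 was near that of all genes and the share on day 7 was under it. At 12 h it was Hsp90ab1, the constitutive HSP90 and partner of Hsp90aa1, with a mean of 3173 CPM after MCAO and 2079 CPM in sham (log2 fold change 0.61 ± 0.12, adjusted p = 0.00254), and it also passed without replicate C (0.63, adjusted p = 0.00445). The median log2 fold change of the 7 cytosolic HSP70, HSP110 and HSP90 genes tested in that list, Hsp90ab1 among them, was 0.16 at 12 h. The 12 HSP90 co-chaperones had a median of 0.26 at 12 h and 0 called genes at any time. Their smallest adjusted p was that of Fkbp4, an immunophilin of steroid receptor complexes, on day 7 (log2 fold change -0.50 ± 0.16, adjusted p = 0.0373). Hspd1, the barrel that Hspe1 closes, had a log2 fold change of 1.01 ± 0.24 at 12 h (adjusted p = 0.0212) and of 0.65 without replicate C (adjusted p = 0.149), and 0 of the 10 mitochondrial chaperones and proteases were called at any time.

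The small heat shock proteins Hspb6 and Hspb8 passed on day 3, and both also had positive log2 fold changes at 12 h and 24 h that did not pass. Hspb6 had a mean of 45.7 CPM after MCAO, with 4 of 5 libraries above all sham libraries, and 8.63 CPM in sham (log2 fold change 2.40 ± 0.37, adjusted p = 1.09e-05), and Hspb8, the partner of BAG3 in selective autophagy, had means of 35.3 and 14.0 CPM (1.33 ± 0.29, adjusted p = 0.0016). At 12 h all 5 MCAO libraries lay above all sham libraries for both genes, with log2 fold changes of 1.60 for Hspb6 (adjusted p = 0.0195) and 1.11 for Hspb8 (adjusted p = 0.0343). At 24 h all 4 did, with 1.79 (adjusted p = 0.0229) and 1.03 (adjusted p = 0.148). The other 6 small heat shock proteins tested did not pass at any time. In the endoplasmic reticulum Calr (0.59 ± 0.15, adjusted p = 0.00663) and Pdia3 (0.86 ± 0.22, adjusted p = 0.00663), which fold glycoproteins, rose on day 3, and the median of the 13 genes of that list was 0.37 on day 3 and 0.30 on day 7. On day 3, when these 4 genes rose, 7 of 9 microglial, 4 of 8 other peripheral myeloid and 4 of 7 fibroblast markers were also called higher. So were 3 of 5 erythroid, 2 of 8 granulocyte and 1 of 6 pericyte and smooth muscle markers. Of the astrocyte, endothelial and thalamus markers, 1 of 9, 1 of 8 and 1 of 5 were. The part of these cells and regions in the values of the 4 genes was not tested. On day 7 the J-domain gene Dnajc21, which acts in ribosome assembly, fell by 1.35 ± 0.32 on the log2 scale (adjusted p = 0.00475), from a mean of 84.9 CPM in sham to 33.2 CPM.

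The remaining lists had no called gene at any time. Among the 9 nucleotide exchange factors and HSP70 partners the smallest adjusted p was that of Sgta on day 7 (log2 fold change -0.57 ± 0.18, adjusted p = 0.033). Among the 8 subunits of the cytosolic chaperonin it was that of Cct3 on day 3 (0.37 ± 0.12, adjusted p = 0.0429). Among the 5 heat shock factors and their binding proteins it was that of Hsbp1, which binds HSF1, on day 7 (0.38 ± 0.15, adjusted p = 0.095). The median log2 fold change of the factors was 0.17 at 3 h and 0.16 at 12 h, and -0.01 at 12 h without replicate C.

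**Figure D5:**
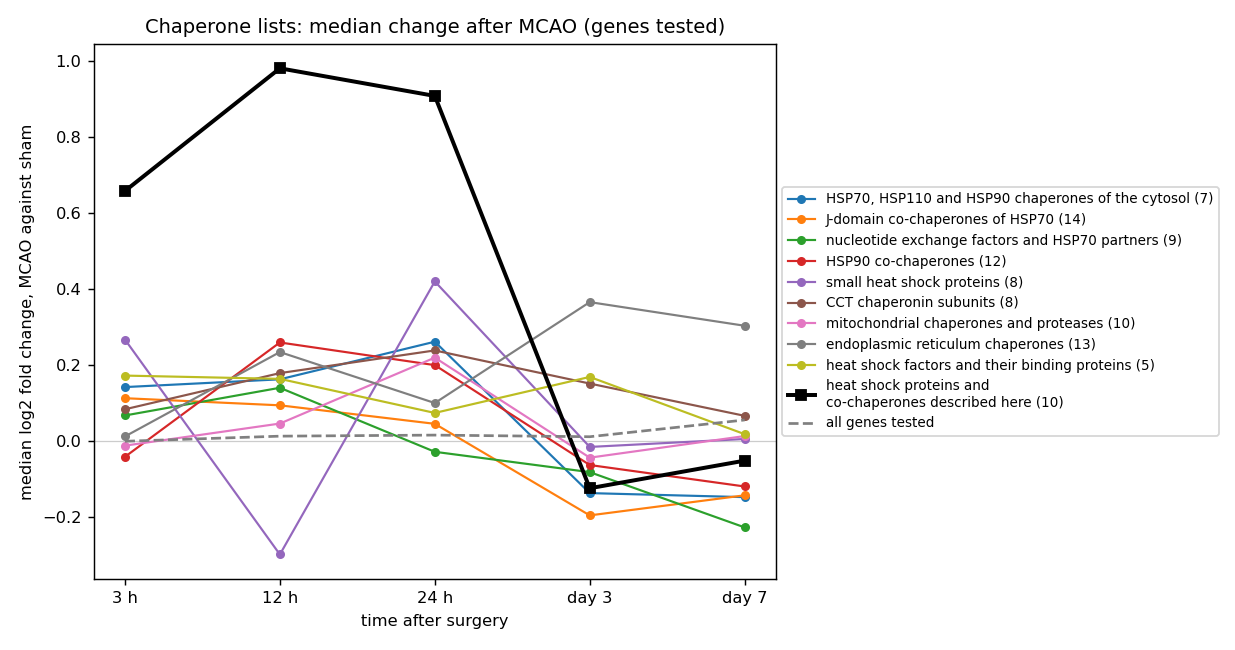
Median log2 fold change of MCAO against sham (vertical) by time after surgery (horizontal) for the 10 heat shock genes described here (black), 9 lists of other chaperones (colors, with the number of genes tested) and all genes tested (dashed). The black line is at 0.66, 0.98 and 0.91 over the first day and near 0 from day 3 on, with 0.55 at 12 h when replicate C is left out, while the endoplasmic reticulum list is highest on day 3.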

How the data were processed

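RNA of brain tissue from 48 libraries in 11 groups was sequenced from the 3′ end (QuantSeq, oligo-dT primed, with ERCC spike-ins). The deposited counts per gene and library were made by the authors with Trimmomatic, SortMeRNA, STAR 2.5.2b and htseq-count (union mode) on GRCm38 with Gencode vM8, and the strand setting is not given in the sources used here. The authors also deposited a log2 matrix of variance-stabilized values, used here only as an alternative. Of all alignments, 24.0% to 37.3% were not unique, 21.1% to 30.7% hit no gene and 0.343% to 0.475% were ambiguous, and these stayed out of library sizes. Symbols came from Gencode vM21 (46488 of 46983 genes), and promoters from RefSeq (GRCm38.p6).

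The 19970 genes whose counts summed to over 10 entered 1 fit of all libraries with edgeR 4.0.16 (R 4.3.3), TMM scaling, quasi-likelihood F-test and Benjamini-Hochberg adjustment, for 19 comparisons. Levels are CPM, and correlations used log2(CPM + 1). Intervals are 95%. The test was tried on simulated counts. The 10 genes and all lists were chosen with earlier results of these data known. All 10 genes are named, and for each chaperone list up to 4 called genes with the smallest adjusted p, or the 1 gene with the smallest if none was called. Likeness was ranked among genes with a mean of at least 2 CPM. Alternatives were DESeq2 1.42.0, its size factors, other filters, spike-in scaling, the replicate letter as a block, only the groups compared, an adjusted p under 0.05, the summed HSP70 pair, limma 3.58.1 on the deposited matrix and each library left out. Spike-in reads were 3.71% to 5.97% of gene and spike-in counts.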

Additional observations from a re-analysis of the deposited data

Results flagged for a closer look

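In MCAO at 12 h, replicate C was far above the other 4 libraries of its group for 6 of the 10 heat shock genes by Dixon's criterion. It had 723 CPM of Hspa1a against 9.64 to 64.1 CPM in the others, 499 CPM of Hspa1b against 4.82 to 48.1 CPM, and 76.2 CPM of Hspb1 against 8.24 to 15.1 CPM. It had 235.8 CPM of Dnajb1 against 61.2 to 81.2 CPM, 31.8 CPM of Bag3 against 4.82 to 12.5 CPM, and 271 CPM of Hspe1 against 70.8 to 106.5 CPM.

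Among sham libraries, Hspb1 was at 17.8 CPM in replicate D of day 3 (6.93 to 8.70 CPM in the others), and Hspa8 was at 281.9 CPM in replicate D of day 7 (222.6 to 231.5 CPM in the others). In all, 8 of 110 groups of values tested had such a library (7.27%), where chance gives about 1 in 20.

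Hsp90aa1 was higher in all MCAO libraries than in all sham libraries at 12 h (log2 fold change 0.72) and lower in all of them on day 7 (-0.43). The difference between these 2 times was not tested.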

How the results depend on the processing

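The number of heat shock genes called depended on the settings at 3 h and 12 h and was 0 under every setting for MCAO against sham on day 3 and day 7, for MCAO against control at 24 h and day 7, for sham against control and for the differences between times. For MCAO against sham at 3 h (1 called), 2 were called with an adjusted p under 0.05, DESeq2, no filter or limma on the deposited matrix, 3 with only the groups compared, and 0 to 1 with 1 library left out. At 12 h (3 called), 5 were called with an adjusted p under 0.05, DESeq2 or no filter, 0 with only the groups compared or limma, and 0 to 4 with 1 library left out, 0 without MCAO replicate C or sham replicate C. At 24 h (0 called), 1 was called with an adjusted p under 0.05, DESeq2, spike-in scaling or only the groups compared, and 3 without a filter. For MCAO against control at 3 h (0 called), DESeq2 size factors gave 1, an adjusted p under 0.05, DESeq2, no filter, only the groups compared or limma gave 2, and leaving out 1 library gave 0 to 1. At 12 h (3 called), an adjusted p under 0.05 or no filter gave 5, spike-in scaling or only the groups compared gave 0, and leaving out 1 library gave 0 to 4. On day 3 (0 called), spike-in scaling gave 3, with Hspa8, Hsp90aa1 and Hspa4l lower, and leaving out 1 library gave 0 to 1. The causes of these changes were not tested.

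With the replicate letter as a replicate block, 2 members were called at 3 h against sham, 2 at 3 h against control, 2 at 12 h against sham and 3 at 12 h against control, and no other count moved. The sources used here do not say whether the letters link libraries of different groups. Of 20 pairs of MCAO and sham libraries with the same letter, 8 had deviations that correlated above 0.1 (r from -0.31 to 0.17). In all, 9 of 48 libraries correlated best with their own letter. Deviations within groups this small are tied to each other, so that these correlations cannot decide whether the letters mark a block. Of 930 log2 fold changes of single members under alternatives, 878 stayed on their side of the threshold, 14 of these with the opposite sign and none of them called, 29 lost a call and 23 gained one. Of the 14, 11 were of Hspa8 or Hspa4l on the first day, and 0 called values changed sign. Spike-in scaling moved the median log2 fold change of all genes by -0.10 at 3 h, -0.11 at 12 h, 0.12 at 24 h and -0.23 on day 3 against sham, and by -0.26 at 12 h and -0.30 on day 3 against control, the comparison in which it added 3 calls. The values without MCAO replicate C of 12 h for the summed pair, the other chaperones and the correlations were added after the data were seen. Low counts limit Bag3 (4 to 61 reads per library) and Hspb1 (4 to 146).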
